A study of Mus musculus with 2 samples.

Results

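Genes of Wnt and norrin signalling at the blood-brain barrier were followed across the cell classes of the mouse brain: 10 of the 26033 genes in the count matrices. They were chosen by symbol for their known role and not by a measured value, and each symbol matched 1 row. By role they were the ligand genes Ndp, Wnt7a and Wnt7b, the receptor and co-receptor genes Fzd4, Lrp5, Tspan12, Adgra2 and Reck, and the target genes Axin2 and Apcdd1. Single-cell RNA sequencing had been run on 2 libraries of sorted brain cells, 1 per genotype. The mutant library came from adult Mrc1Cre:Csf1r fl/fl mice and the control library from adult Csf1r fl/fl mice. Both carry a floxed Csf1r, the gene of the colony-stimulating factor 1 receptor that macrophages and microglia need, so only the Cre differs by label. Cre under Mrc1 acts in cells that express the mannose receptor, chiefly the border-associated macrophages (BAMs) at brain vessels, meninges and choroid plexus. The labels name sorts for mural cells with fibroblasts, endothelial cells, astrocytes, BAMs and microglia, and give neither sex nor number of mice per library, nor an age beyond adult. With 1 library per genotype no test between genotypes exists, and every interval below is a 95% interval for counting error only, which leaves out the spread between animals.

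The mutant matrix held 8735 barcodes with 82806348 unique molecular identifiers (UMIs, 1 per captured RNA molecule), and the control matrix 8739 barcodes with 85716531 UMIs. Of these, 6130 mutant and 5614 control barcodes passed the filters, and a gate on marker genes placed 5289 mutant and 5028 control cells in 1 class each. The classes are rebuilt from RNA and written as "X-like". The 6 classes with at least 50 cells in each library were endothelial-like (149 mutant, 115 control), fibroblast-like (335 mutant, 127 control), astrocyte-like (220 mutant, 630 control), choroid plexus epithelium-like (664 mutant, 375 control), microglia-like (3638 mutant, 3404 control) and BAM-like (101 mutant, 253 control). At least 9 of each class's 10 marker genes were found at 10 CPM (counts per 1000000 UMIs of a class) or more in both libraries. Pericyte-like cells numbered 7 in the mutant and 8 in the control, and 28 in the mutant and 15 in the control without the mitochondrial limit. The libraries shared 17 barcodes, of which 9 passed the filters. Csf1r averaged 1185 CPM in mutant and 1378 CPM in control BAM-like cells, and 1844 CPM in mutant and 2332 CPM in control microglia-like cells. A UMI at the 3′ end does not check the deletion.

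Wnt proteins and norrin are secreted ligands that bind Frizzled receptors together with the co-receptors LRP5 or LRP6, stabilise β-catenin and switch on genes through TCF and LEF factors. In the brain, WNT7A and WNT7B from neural and glial cells act on endothelial cells through the co-receptors ADGRA2 (also GPR124) and RECK, and norrin acts through FZD4, LRP5 and the tetraspanin TSPAN12. In endothelium this pathway is known to build and keep the blood-brain and blood-retina barriers.

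Promoter sequence was at hand for 6 of the 10 genes (Ndp, Wnt7a, Fzd4, Tspan12, Reck and Axin2), taken from RefSeq on GRCm38.p6 as 250 bases before and 50 bases after the gene start, while Lrp5, Adgra2, Apcdd1 and Wnt7b are named only. Shown here are norrin's gene and that of its receptor Fzd4, Wnt7a as a Wnt ligand gene, and Axin2 as the target gene, because the results turn on where these 4 are transcribed. Capitals mark the core letters that TCF and LEF factors can bind, searched on both strands as CTTTGA (reverse TCAAAG) and CTTTGT (reverse ACAAAG), which share no hit. The windows are chrX:16911725-16912024 on the minus strand, chr6:91411304-91411603 on the minus strand, chr7:89404116-89404415 on the plus strand and chr11:108920099-108920398 on the plus strand, each read 5′ to 3′ in the direction of its gene.
Ndp: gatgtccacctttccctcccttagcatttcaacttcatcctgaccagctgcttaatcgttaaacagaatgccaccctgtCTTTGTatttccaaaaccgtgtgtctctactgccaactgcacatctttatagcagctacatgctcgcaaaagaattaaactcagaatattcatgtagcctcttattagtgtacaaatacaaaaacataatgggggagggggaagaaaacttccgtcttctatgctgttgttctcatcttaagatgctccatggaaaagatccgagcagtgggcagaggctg
Wnt7a: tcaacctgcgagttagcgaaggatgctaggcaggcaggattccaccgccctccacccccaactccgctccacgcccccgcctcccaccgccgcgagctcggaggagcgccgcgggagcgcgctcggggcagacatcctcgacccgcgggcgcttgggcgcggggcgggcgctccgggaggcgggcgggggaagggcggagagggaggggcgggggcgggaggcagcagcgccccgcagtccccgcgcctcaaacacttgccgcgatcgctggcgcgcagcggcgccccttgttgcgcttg
Fzd4: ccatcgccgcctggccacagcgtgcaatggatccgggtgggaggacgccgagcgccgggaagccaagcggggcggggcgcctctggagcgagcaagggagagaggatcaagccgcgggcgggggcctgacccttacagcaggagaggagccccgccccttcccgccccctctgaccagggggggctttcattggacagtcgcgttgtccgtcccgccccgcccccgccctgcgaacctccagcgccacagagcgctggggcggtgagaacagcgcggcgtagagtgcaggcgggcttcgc
Axin2: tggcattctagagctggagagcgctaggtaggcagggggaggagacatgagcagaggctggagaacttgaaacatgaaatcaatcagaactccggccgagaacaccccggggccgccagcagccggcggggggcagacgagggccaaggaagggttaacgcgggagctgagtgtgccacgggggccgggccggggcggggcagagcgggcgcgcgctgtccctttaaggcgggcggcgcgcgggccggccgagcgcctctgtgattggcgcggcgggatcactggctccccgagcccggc
The Ndp window held 1 CTTTGT, starting 171 bases before the gene start, and the windows of Wnt7a, Fzd4 and Axin2 held neither motif. Tspan12 and Reck held 1 ACAAAG each. CTTTGA or its reverse is in 16.0% of all 32851 promoter windows, CTTTGT or its reverse in 18.7%, and at least 1 of them in 31.2%. Base composition separated the windows more plainly: G and C made up 43.0% of the Ndp window and 44.0% of the Tspan12 window, against 76.0% for Wnt7a, 72.7% for Fzd4, 70.0% for Axin2 and 69.3% for Reck, beside a median of 52.7% over all windows.

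Of the 6 classes, the 3 ligand genes were found in astrocyte-like cells and almost nowhere else. Levels in CPM are relative to all UMIs that a class held in 1 library. Ndp (ENSMUSG00000040138, chromosome X, 16885521 to 16911774, minus strand, GRCm38), the norrin gene, stood at 43.4 CPM (34.0 to 54.6, 73 UMIs) in mutant astrocyte-like cells, against 47.2 CPM (41.9 to 52.9, 289 UMIs) in control ones. Wnt7a (ENSMUSG00000030093, chromosome 6, 91363981 to 91411363, minus strand) stood at 55.9 CPM (45.2 to 68.4) in the mutant and 63.5 CPM (57.3 to 70.1) in the control. Wnt7b (ENSMUSG00000022382, chromosome 15, 85535437 to 85582473, minus strand) stood at 48.7 CPM (38.8 to 60.5) in the mutant and 56.1 CPM (50.4 to 62.4) in the control. Each of the 3 was thus slightly lower in the mutant, with overlapping intervals. All 3 had their highest level of the 6 classes in astrocyte-like cells in both libraries, where 17.2% of 15013 genes did. The next class was lower by a large factor: in the mutant Ndp was 93.9 times (25.1 to 790) and Wnt7a 151 times (82.7 to 303) above it, and in the control Ndp 62.5 times (17.2 to 519) and Wnt7a 56.1 times (19.1 to 273). Wnt7b was 226 times (105 to 581) above the next class in the mutant and 8.39 times (2.85 to 40.9) in the control, where that class was endothelial-like with 3 UMIs. Classes too small for the comparison held some ligand RNA: Wnt7b stood at 5.93 CPM (9 UMIs) in the mutant and 8.77 CPM (6 UMIs) in the control of ependymal-like cells. Wnt7a had 6 UMIs (19.4 CPM, 7.12 to 42.2) in 30 mutant neuron-like cells and 1 UMI (3.01 CPM) in 11 control ones. Ndp had 0 UMIs in 15 mutant oligodendrocyte-like cells, which allows up to 9.94 CPM, and 7 UMIs (8.04 CPM, 3.23 to 16.6) in 42 control ones.

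Most single astrocyte-like cells gave no UMI of a given ligand gene. An Ndp UMI was present in 62 of 220 mutant cells (28.2%, 22.3 to 34.6) and 196 of 630 control cells (31.1%, 27.5 to 34.9). For Wnt7a the share was 29.5% (23.6 to 36.0) in the mutant and 38.6% (34.8 to 42.5) in the control, at median depths of 6858 UMIs per mutant and 8240.5 UMIs per control cell. After each cell was thinned to 2000 UMIs, which 2 mutant and 6 control cells could not reach, the share with Ndp was 7.97% in the mutant and 8.44% in the control, that with Wnt7a 10.0% in the mutant and 11.9% in the control, and that with Wnt7b 9.76% in the mutant and 9.95% in the control. Endothelial-like cells held 0 UMIs of Ndp and Wnt7a in either library, which allows up to 5.81 CPM in the mutant and 6.69 CPM in the control. The ligands overlapped in part within cells. Ndp and Wnt7a were found together in 24 cells of the mutant and 86 of the control, out of 62 mutant and 196 control cells with Ndp. Ndp and Wnt7b were found together in 31 of the 220 cells in the mutant and 86 of the 630 in the control. The cells with Ndp and Wnt7b were deeper than the class, with medians of 9023 UMIs in the mutant and 12250.5 UMIs in the control.

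A few UMIs of the ligand genes were also found in microglia-like cells. Ndp was present in 0.110% of mutant and 0.441% of control microglia-like cells, and Wnt7b in 0.192% of mutant and 1.06% of control ones, at medians of 8161 UMIs per mutant and 8280.5 UMIs per control cell. The UMIs were 4 in the mutant and 17 in the control for Ndp, 12 in the mutant and 35 in the control for Wnt7a, and 7 in the mutant and 36 in the control for Wnt7b. All 3 were lower in the mutant library, and so was the summed level of the 10 astrocyte markers in microglia-like cells, at 74.0 CPM in the mutant and 196 CPM in the control. Astrocyte-like cells numbered 220 in the mutant and 630 in the control, and the part of free RNA in these few UMIs was not tested.

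Within the astrocyte-like class the ligands differed between clusters that were computed without the 10 genes. The largest, led by Erbb4, Tafa1 and Cyp26b1, held 148 mutant and 412 control cells, a second led by Lhx2, Chrdl1 and Lypd6 held 49 mutant and 192 control cells, and a small one led by Gdf10, Mybpc1 and Prkg1 held 23 mutant and 25 control cells. Ndp was highest in the Lhx2 cluster, at 64.9 CPM in the mutant and 72.7 CPM in the control, against 39.3 CPM in the mutant and 35.5 CPM in the control for the Erbb4 cluster. Wnt7a had 0 UMIs in the Gdf10 cluster of either library, which allows up to 15.9 CPM in the mutant and 11.7 CPM in the control, while it stood at 79.9 CPM (mutant) and 59.2 CPM (control) in the Lhx2 cluster and at 56.7 CPM (mutant) and 69.5 CPM (control) in the Erbb4 cluster. Wnt7b was at 10.6 CPM in mutant and 31.1 CPM in control cells of the Gdf10 cluster, and between 53.0 and 59.1 CPM in both libraries of the other clusters. The Gdf10 cluster was 10.5% of the class in the mutant and 3.97% in the control, and its 10 leading genes against all other classes held 0 astrocyte markers and 1 oligodendrocyte precursor marker, Ptprz1. The Erbb4 cluster also had 0 astrocyte markers among its 10 leading genes against all other classes, and none of another class. Against the rest of the astrocyte-like class, its leading genes included Lhfpl3, an oligodendrocyte precursor marker. Without the Gdf10 cluster, Wnt7a stood at 62.9 CPM in mutant and 66.3 CPM in control astrocyte-like cells (mutant over control ratio 0.949, interval 0.750 to 1.19). With the Gdf10 cluster the ratio was 0.880 (0.695 to 1.11).

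**Figure D1:**
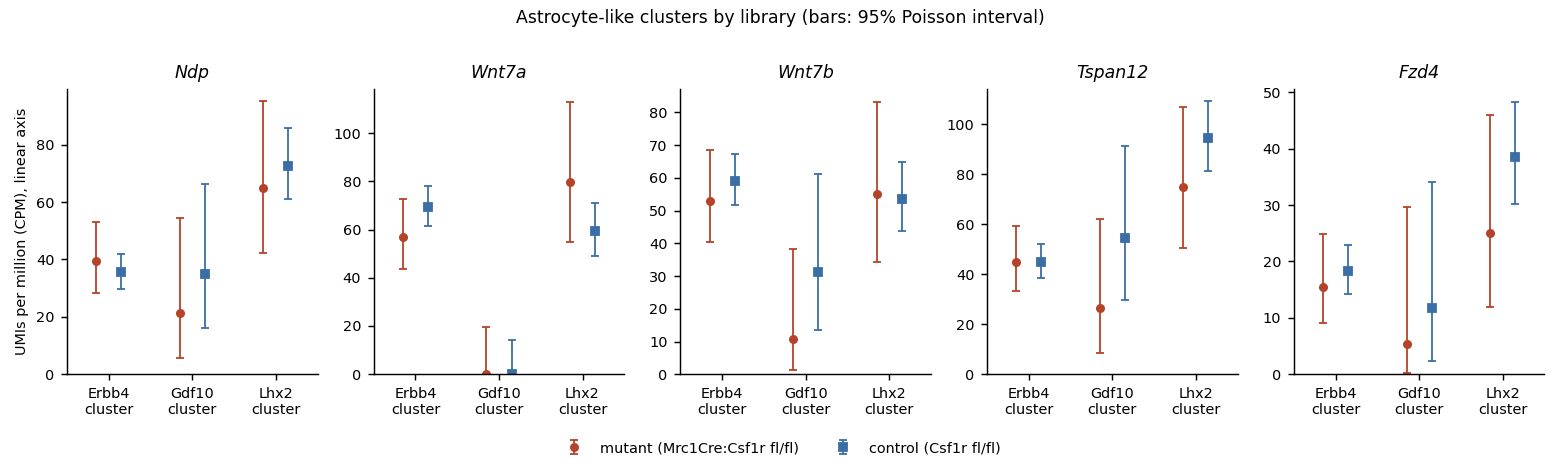
Levels (CPM, linear axes that start at 0) of 5 genes in the 3 astrocyte-like clusters, named by their leading gene, in the mutant (red circles) and control (blue squares) library, with 95% Poisson intervals as bars. Wnt7a is at 0 in the Gdf10 cluster of both libraries, and Ndp and Tspan12 are highest in the Lhx2 cluster.

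The receptor genes were highest in endothelial-like cells with 1 exception, Lrp5. Fzd4, Tspan12, Adgra2 and Reck, with the target genes Axin2 and Apcdd1, make 6 of 10 genes that had their highest level of the 6 classes there in both libraries, where 13.3% of 15013 genes did. None of the 10 peaked in fibroblast-like cells, where 12.2% of genes did, in choroid plexus epithelium-like cells (9.07%) or in BAM-like cells (8.47%). The gate on endothelial markers used none of them. These peaks hold for whole classes. The fibroblast-like cluster led by Coch, described below, held Axin2, Reck and, in the control, Adgra2 near the endothelial-like levels.

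**Figure D2:**
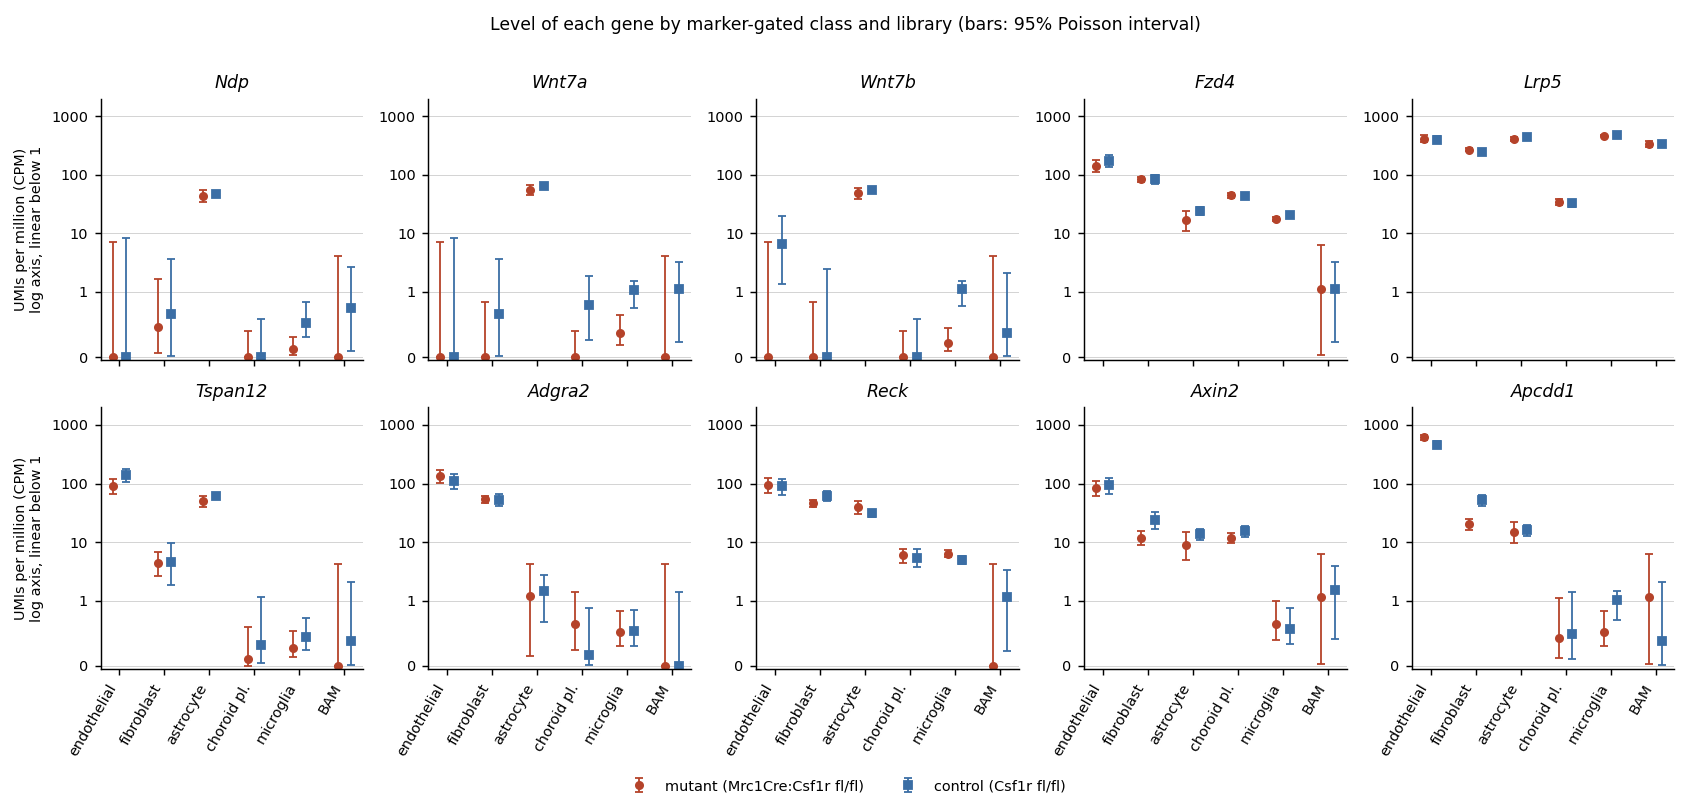
Level of each of the 10 genes (CPM, on a log axis that is linear below 1) in the 6 classes, with the mutant (red circles) left of the control (blue squares) and 95% Poisson intervals as bars. Ndp, Wnt7a and Wnt7b peak in astrocyte-like cells, Fzd4, Tspan12, Adgra2, Reck, Axin2 and Apcdd1 in endothelial-like cells, and Lrp5 is low in choroid plexus epithelium-like cells alone.

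Fzd4 (ENSMUSG00000049791, chromosome 7, 89404355 to 89413134, plus strand), the receptor that norrin binds, stood at 141 CPM (111 to 178) in mutant and 174 CPM (138 to 217) in control endothelial-like cells. Its order over classes was graded and the same in both libraries down to the choroid plexus: fibroblast-like cells had 84.1 CPM in the mutant and 83.6 CPM in the control, and choroid plexus epithelium-like cells 44.6 CPM in the mutant and 44.4 CPM in the control. Astrocyte-like cells, at 16.6 CPM (11.1 to 24.1) in the mutant and 24.3 CPM (20.6 to 28.5) in the control, and microglia-like cells, at 17.7 CPM (16.2 to 19.2) in the mutant and 20.3 CPM (18.8 to 21.9) in the control, were not separated by their intervals. BAM-like cells were near 0, with 1 UMI in the mutant and 3 in the control. In microglia-like cells the mutant held 574 Fzd4 and 17 Apcdd1 UMIs and the control 651 Fzd4 and 33 Apcdd1 UMIs. In endothelial-like cells the mutant held 73 Fzd4 and 318 Apcdd1 UMIs and the control 78 Fzd4 and 205 Apcdd1 UMIs. The part of free RNA in the microglia-like counts was not tested.

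Tspan12 (ENSMUSG00000029669, chromosome 6, 21771395 to 21852515, minus strand), the tetraspanin that joins the norrin receptor, stood at 89.0 CPM (65.2 to 119, 46 UMIs) in mutant and 138 CPM (106 to 177, 62 UMIs) in control endothelial-like cells. Astrocyte-like cells followed with 49.9 CPM (39.8 to 61.8) in the mutant and 60.9 CPM (54.8 to 67.4) in the control. Ependymal-like cells, a class too small for the comparison with 88 mutant and 41 control cells, had 51.4 CPM (40.7 to 64.2) in the mutant and 42.4 CPM (28.4 to 60.9) in the control. The other classes stayed below 5 CPM, microglia-like cells at 0.277 CPM in the mutant and 0.437 CPM in the control. Among astrocyte-like clusters Tspan12 was highest in the Lhx2 cluster, as Ndp was, at 74.9 CPM in the mutant and 94.5 CPM in the control. An antisense gene, Gm30270, overlaps Tspan12, so reads of the pair could be told apart only by strand.

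Lrp5 (ENSMUSG00000024913, chromosome 19, 3584828 to 3686564, minus strand), the co-receptor for both ligand types, was found broadly. Microglia-like cells had 468 CPM (461 to 476) in the mutant and 488 CPM (480 to 495) in the control, the highest of the 6 classes in both libraries, where 12.3% of genes peaked in that class. Endothelial-like cells had 416 CPM (362 to 476) in the mutant and 401 CPM (345 to 465) in the control, and astrocyte-like cells 412 CPM (382 to 444) in the mutant and 439 CPM (423 to 456) in the control. These 3 classes were close, since microglia-like cells exceeded the next class 1.13-fold (0.984 to 1.29) in the mutant and 1.11-fold (1.07 to 1.16) in the control. A shallow cluster of 676 mutant and 548 control microglia-like cells, with none of the microglial markers among its 10 leading genes, had 1063 CPM in the mutant and 1092 CPM in the control. Without that cluster the class stood at 430.0 CPM in the mutant and 457 CPM in the control. BAM-like cells had 333 CPM in the mutant and 341 CPM in the control, and fibroblast-like cells 270 CPM in the mutant and 249 CPM in the control. Choroid plexus epithelium-like cells had the lowest level, 34.1 CPM (30.4 to 38.1) in the mutant and 32.8 CPM (28.5 to 37.6) in the control. Transthyretin (Ttr) alone made up 30.3% of that class's UMIs in the mutant and 31.3% in the control; with Ttr left out of the total, Lrp5 stood at 48.9 CPM in the mutant and 47.8 CPM in the control. A small cluster of that class led by Esrrg and Magi2, with 36 mutant and 19 control cells, held more of Lrp5, at 170 CPM (mutant) and 185 CPM (control) against 18.8 CPM (mutant) and 18.9 CPM (control) in the main cluster. Fzd4 followed the same order there, with 92.4 CPM (mutant) and 141 CPM (control) in the Esrrg cluster and 39.4 CPM (mutant) and 35.5 CPM (control) in the main one.

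Adgra2 and Reck, which encode the co-receptors for WNT7A and WNT7B, shared endothelial-like and fibroblast-like cells. Adgra2 (ENSMUSG00000031486, chromosome 8, 27085583 to 27123436, plus strand) stood at 134 CPM (104 to 169) in mutant and 109 CPM (80.8 to 144) in control endothelial-like cells. Fibroblast-like cells had 54.1 CPM (47.4 to 61.5) in the mutant and 52.6 CPM (41.7 to 65.5) in the control, and no other of the 6 classes passed 1.5 CPM. Reck (ENSMUSG00000028476, chromosome 4, 43875530 to 43944806, plus strand) stood at 92.9 CPM (68.5 to 123) in mutant and 89.2 CPM (63.7 to 121) in control endothelial-like cells. It was less confined than Adgra2: fibroblast-like cells had 46.5 CPM in the mutant and 61.2 CPM in the control, and astrocyte-like cells 39.2 CPM in the mutant and 31.2 CPM in the control. In the control the endothelial-like level of Reck exceeded the fibroblast-like one 1.46-fold, with an interval of 0.980 to 2.13 that includes 1, while in the mutant the factor was 1.999 (1.43 to 2.75). Gm27265 overlaps Reck on the same strand, and Brf2 overlaps Adgra2 on the other, so a share of their reads may be uncertain. In endothelial-like cells both RNAs were found together in 13 of 149 mutant and 9 of 115 control cells.

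Over the 6 whole classes, both target genes marked endothelial-like cells more sharply than the receptors did. Apcdd1 (ENSMUSG00000071847, chromosome 18, 62922231 to 62961179, plus strand), a membrane-bound inhibitor that Wnt signalling itself induces, stood at 615 CPM (550 to 687, 318 UMIs) in mutant and 457 CPM (397 to 524, 205 UMIs) in control endothelial-like cells. The next class, fibroblast-like cells, was 30.2 times (23.8 to 38.8) lower in the mutant and 8.91 times (6.83 to 11.7) lower in the control. Axin2 (ENSMUSG00000000142, chromosome 11, 108920349 to 108950783, plus strand), a feedback inhibitor that degrades β-catenin and reports the pathway in many tissues, stood at 83.2 CPM (60.2 to 112) in mutant and 93.7 CPM (67.5 to 127) in control endothelial-like cells. It exceeded the fibroblast-like level 7.06-fold (4.59 to 10.8) in the mutant and 3.95-fold (2.47 to 6.35) in the control. That level pools 2 unlike clusters: the one led by Coch held Axin2 at 84.9 CPM in the mutant and 96.7 CPM in the control, near the endothelial-like levels. Axin2 was also present at 29.7 CPM in mutant and 29.2 CPM in control ependymal-like cells and at 11.7 CPM in mutant and 15.4 CPM in control choroid plexus epithelium-like cells, where Apcdd1 stayed at 0.430 CPM in the mutant and 0.480 CPM in the control. Gm11670 overlaps Axin2 on the other strand. Of the endothelial-like cells with an Axin2 UMI, 31 of 34 in the mutant and 21 of 27 in the control also had an Apcdd1 UMI, which 99 of all 149 mutant and 64 of all 115 control cells had. Cells with both were deeper, at medians of 4375 UMIs in the mutant and 4825 UMIs in the control, against 3284 UMIs (mutant) and 3631 UMIs (control) over the class.

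Endothelial-like cells with a UMI of Plvap, the diaphragm protein of fenestrated vessels that lack a barrier, were compared with the rest. There were 8 such cells in the mutant and 18 in the control. Axin2 had 0 UMIs in them in both libraries, which allows up to 93.3 CPM in the mutant and 28.9 CPM in the control, while the other endothelial-like cells had 88.7 CPM in the mutant and 122 CPM in the control, so a difference was not detectable in the mutant. Apcdd1 had 0 UMIs in mutant and 18 UMIs (173 CPM) in control cells with Plvap, against 656 CPM in mutant and 543 CPM in control cells without. Lef1, the DNA-binding partner of β-catenin, stood at 31.1 CPM in mutant and 135 CPM in control cells with Plvap, against 1436 CPM (mutant) and 1260 CPM (control) without, and the tight junction gene Cldn5 at 31.1 CPM (mutant) and 934 CPM (control) with Plvap, against 5871 CPM (mutant) and 6051 CPM (control) without. The norrin receptor ran the other way: Fzd4 stood at 435 CPM (238 to 730, 14 UMIs) in mutant and 328 CPM (227 to 458, 34 UMIs) in control cells with Plvap, and at 122 CPM in mutant and 128 CPM in control cells without. Tspan12 was at 231 CPM (148 to 344) in the control cells with Plvap and at 110 CPM in those without, while the mutant cells with Plvap held 3 UMIs, with an interval of 19.2 to 273 CPM. These levels rest on few cells: of the 18 control cells with Plvap, 3 held all Apcdd1 UMIs, and Cldn5 and Lef1 were each found in 3.

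**Figure D3:**
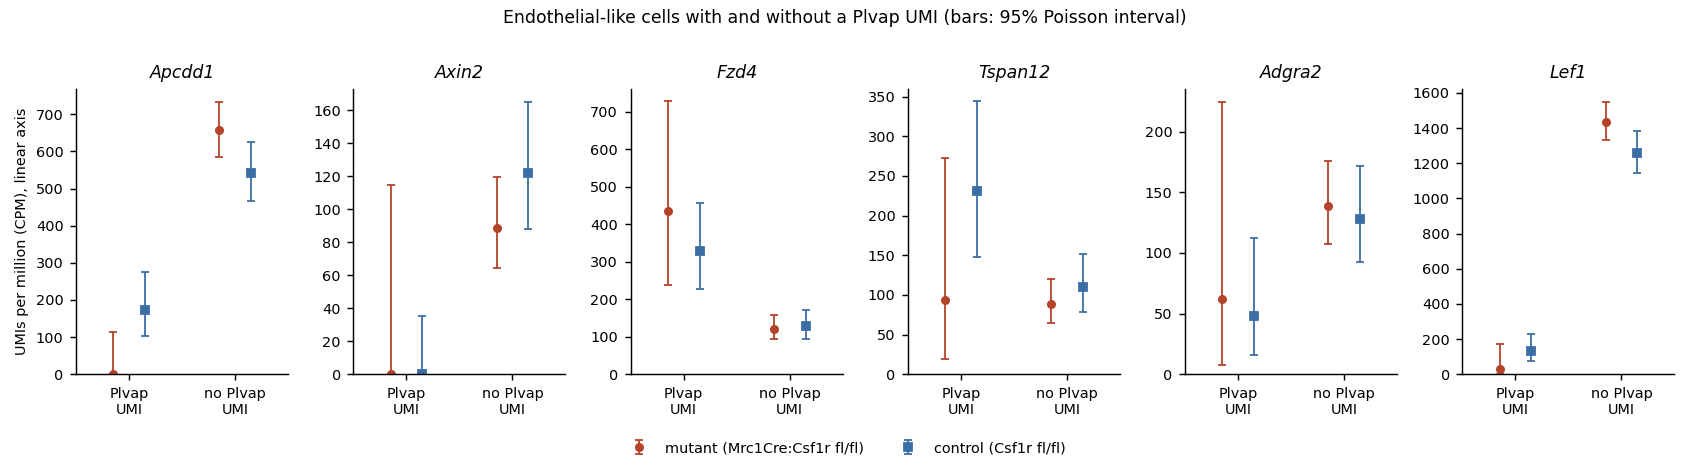
Levels (CPM, linear axes that start at 0, each with its own range) of 6 genes in endothelial-like cells with (8 mutant, 18 control) and without (141 mutant, 97 control) a Plvap UMI, mutant as red circles and control as blue squares, with 95% Poisson intervals as bars. Apcdd1 and Lef1 are higher in cells without Plvap and Fzd4 in cells with it, in both libraries. Axin2 is at 0 UMIs with Plvap. In the mutant that count allows a level up to 93.3 CPM by the limit of 3 counts, and the bar reaches 114.7 CPM. Both lie above the 88.7 CPM without Plvap.

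Between genotypes most levels were close. A gene was measured in a class when it had at least 50 UMIs there over both libraries, and it met the size rule when the mutant over control ratio reached 1.5 in either direction and the interval did not include 1. Of the 60 pairs of gene and class, 31 were measured, 0 were higher in the mutant and 4 were lower, and 27 met neither direction. In endothelial-like cells 1 of 7 measured genes was lower, where 4.21% of 4088 genes were lower and 3.82% higher. That gene was Tspan12, with a ratio of 0.644 (0.430 to 0.958), which was 0.742 and missed the rule when each cell had equal weight. Fzd4 at 0.812 (0.582 to 1.13), Lrp5 at 1.04 (0.846 to 1.27), Adgra2 at 1.22 (0.835 to 1.80), Reck at 1.04 (0.670 to 1.63) and Axin2 at 0.888 (0.567 to 1.39) had intervals that include 1. Apcdd1 was above the control at 1.35 (1.13 to 1.61), under the size the rule asks. It was 1.78 (1.23 to 2.59) and past the rule in the endothelial-like cluster led by Plpp3 and Plpp1, at 518 CPM (88 UMIs) in the mutant and 292 CPM (46 UMIs) in the control, and 1.21 (0.986 to 1.49) in the one led by Tmsb10. Within the Plpp3 cluster Plvap stood at 465 CPM in the mutant and 1775 CPM in the control, and without cells with a Plvap UMI the Apcdd1 ratio there was 1.18 (0.816 to 1.72). Without the cells that carry a Plvap UMI, the ratio was 0.805 (0.508 to 1.28) for Tspan12, which no longer met the rule, and 1.21 (1.01 to 1.46) for Apcdd1. Plvap itself stood at 153 CPM in mutant and 763 CPM in control endothelial-like cells, and its part in both ratios beyond these values was not tested. The libraries also differed in 5 pituitary endocrine markers, which summed to 54.2 CPM in mutant and 346 CPM in control endothelial-like cells. The same markers summed to 2.71 CPM in mutant and 151 CPM in control microglia-like cells, and to 2.97 CPM (mutant) and 294 CPM (control) in astrocyte-like cells. Whether the tissue taken differed between the libraries, and its part in the ratios, was not tested.

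In fibroblast-like cells 2 of 6 measured genes were lower in the mutant, both of them target genes, where 4.13% of 9686 genes were lower and 3.16% higher. Apcdd1 stood at 20.3 CPM (16.3 to 25.1, 88 UMIs) in the mutant and 51.3 CPM (40.6 to 64.1, 78 UMIs) in the control (mutant over control ratio 0.396, interval 0.289 to 0.545), although 1 mutant cell alone held 36.4% of the mutant UMIs. Axin2 stood at 11.8 CPM (8.78 to 15.5) in the mutant and 23.7 CPM (16.6 to 32.8) in the control (mutant over control ratio 0.498, interval 0.319 to 0.785). Fzd4 at 1.01 (0.820 to 1.24), Lrp5 at 1.08 (0.964 to 1.22), Adgra2 at 1.03 (0.794 to 1.34) and Reck at 0.759 (0.591 to 0.982) did not meet the rule. The makeup of the class differed between libraries too. A cluster led by Coch, Slc7a11 and Slc6a13 was 13.4% (10.0 to 17.6) of mutant and 29.9% (22.1 to 38.7) of control fibroblast-like cells, and it held 87 of 88 mutant and 78 of 78 control Apcdd1 UMIs. Within that cluster Apcdd1 stood at 211 CPM in the mutant and 228 CPM in the control (mutant over control ratio 0.924, interval 0.673 to 1.27), and Axin2 at 84.9 CPM in the mutant and 96.7 CPM in the control (mutant over control ratio 0.879, interval 0.530 to 1.46). The Apcdd1 value there rested on 1 mutant cell with 32 of the 87 UMIs: without it Apcdd1 stood at 138 CPM in the mutant and 228 CPM in the control (ratio 0.606, interval 0.421 to 0.867), which met the rule. With the cell highest in Apcdd1 left out of each library the ratio was 0.691 (0.475 to 1.002), which did not. Over the whole class Apcdd1 met the rule either way, at 0.253 (0.176 to 0.361) without that mutant cell. Axin2 within the cluster was 0.679 (0.390 to 1.17) without its highest mutant cell. The counts thus do not settle whether Apcdd1 differed within the cluster. The other cluster, led by Slc47a1 and Slc4a10, held 1 Apcdd1 UMI in the mutant and 0 in the control, and Axin2 at 4.09 CPM in the mutant and 2.55 CPM in the control.

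The receptor Fzd4 lay the other way in these fibroblast-like clusters. It stood at 92.2 CPM in mutant and 101 CPM in control cells of the Slc47a1 cluster, against 7.28 CPM (mutant) and 23.4 CPM (control) in the Coch cluster. Rspo3, a secreted enhancer of Wnt signalling that acts through LGR receptors, was confined in the same way, at 1272 CPM (mutant) and 1174 CPM (control) in the Slc47a1 cluster and 41.3 CPM (mutant) and 23.4 CPM (control) in the Coch cluster. Adgra2 and Reck were higher in the Coch cluster in both libraries, Adgra2 at 107 CPM (mutant) and 105 CPM (control) against 48.5 CPM (mutant) and 37.3 CPM (control) in the Slc47a1 cluster. Reck stood at 82.5 CPM (mutant) and 90.8 CPM (control) in the Coch cluster. Fibroblast-like cells therefore held the target genes and Fzd4 in different clusters. The pericyte marker list summed to 239 CPM in mutant and 1344 CPM in control fibroblast-like cells. Of this, 1 gene alone stood at 154 CPM in the mutant and 1220 CPM in the control. Vtn, a gene of that list, was among the leading genes of the Coch cluster. The part of the list in these results was not tested.

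**Figure D4:**
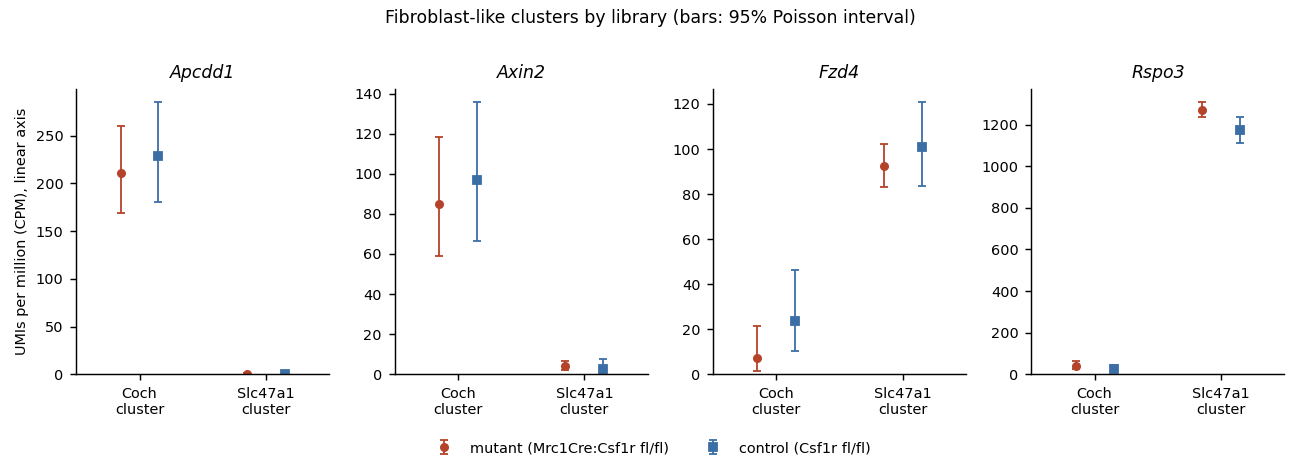
Levels (CPM, linear axes that start at 0, each with its own range) of Apcdd1, Axin2, Fzd4 and Rspo3 in the fibroblast-like clusters led by Coch (45 mutant, 38 control cells) and Slc47a1 (290 mutant, 89 control cells), mutant as red circles and control as blue squares, with 95% Poisson intervals as bars. Apcdd1 and Axin2 are higher in the Coch cluster, where 1 mutant cell holds 32 of the 87 mutant Apcdd1 UMIs, and Fzd4 and Rspo3 are higher in the Slc47a1 cluster, in both libraries.

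In astrocyte-like cells 0 of 9 measured genes met the rule, where 2.65% of 10286 genes were higher and 2.01% lower. The ratios were 0.920 (0.702 to 1.19) for Ndp, 0.880 (0.695 to 1.11) for Wnt7a and 0.868 (0.674 to 1.11) for Wnt7b, so none of the ligand intervals reached below 0.674. Axin2 had 15 UMIs (8.92 CPM) in the mutant and 84 UMIs (13.7 CPM) in the control (mutant over control ratio 0.650, interval 0.349 to 1.13). Fzd4 had 28 UMIs in the mutant and 149 UMIs in the control (mutant over control ratio 0.684, interval 0.440 to 1.03). With trimmed-mean scaling this Fzd4 ratio met the rule. In choroid plexus epithelium-like cells 0 of 4 met it, where 2.01% of 9551 genes were higher and 1.42% lower, and in BAM-like cells Lrp5 alone was measured, at 0.976 (0.852 to 1.11), where 3.92% of 7543 genes were higher and 3.10% lower. In microglia-like cells 1 of 4 was lower, where 4.49% of 12769 genes were lower and 2.12% higher. It was Apcdd1, at 17 UMIs in the mutant and 33 in the control, a level near 0 with a ratio of 0.508 (0.265 to 0.938), which no longer met the rule with at least 1000 genes per barcode (0.524), with doublets kept (0.566), with clusters in place of the gate (0.809) or without the shallow cluster (0.499). Lrp5 at 0.960 (0.939 to 0.982), Fzd4 at 0.869 (0.776 to 0.974) and Reck at 1.26 (1.02 to 1.55) had intervals without 1 but differed by less than the rule asks. Within the microglia-like cluster led by Slc1a2 and Ccl12, Fzd4 met the rule at 0.507 (0.310 to 0.800, 24 mutant and 96 control UMIs). In the other microglia-like clusters with at least 50 Fzd4 UMIs the ratio lay between 0.754 and 1.04, with intervals that include 1. Slc1a2, an astrocyte marker, led the cluster at 1.55-fold over the rest of the class, and the pituitary gene Prl was among its leading genes. Fzd4 also met the rule within the Esrrg cluster of choroid plexus epithelium-like cells, at 0.657 (0.475 to 0.909, 85 mutant and 74 control UMIs). Both were picked from all ratios by cluster, without a share over all genes beside them.

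**Figure D5:**
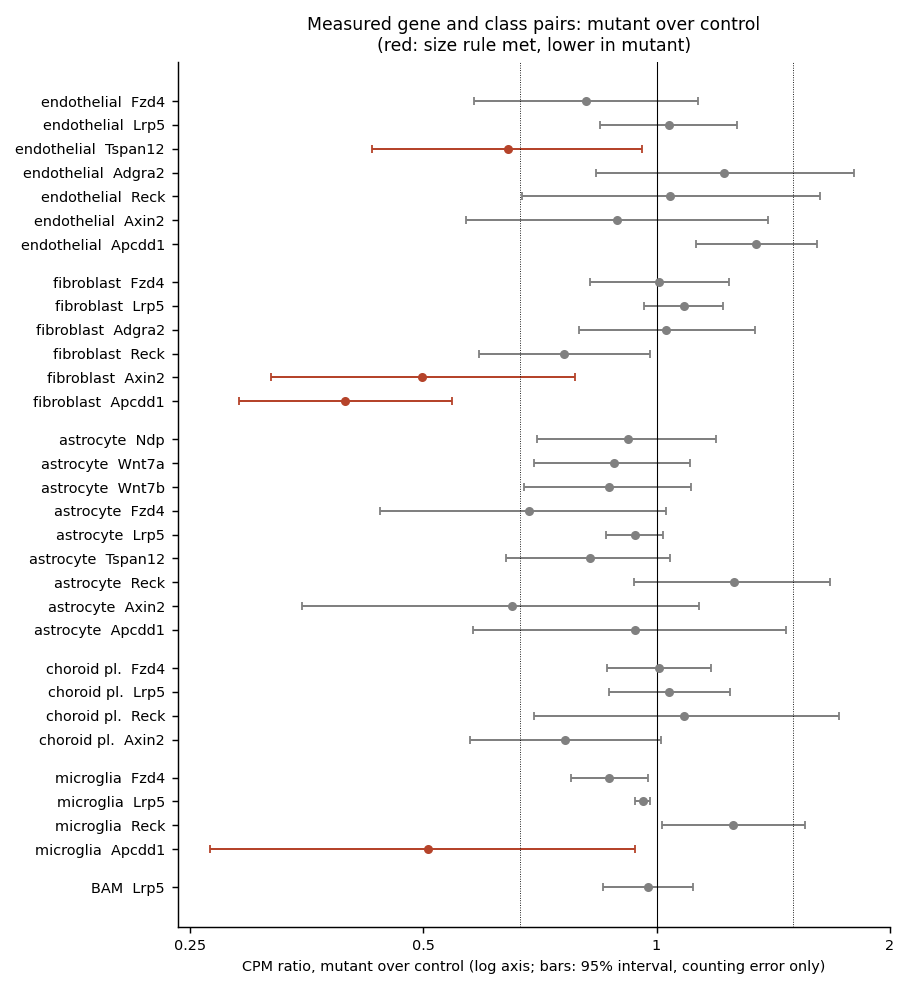
Mutant over control CPM ratio (log axis) of the 31 measured pairs of gene and class, with exact 95% intervals for counting error as bars and dotted lines at 1.5 and its inverse. The 4 red points are lower in the mutant by the size rule: Tspan12 in endothelial-like cells, Axin2 and Apcdd1 in fibroblast-like cells and Apcdd1 in microglia-like cells.

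Other genes of the pathway were read from a list of 89 genes by role. In endothelial-like cells 28 of them were measured, of which 0 were higher and 0 lower by the size rule. Their median log2 ratio was 0.20, beside 0.01 over all measured genes. The 10 barrier genes that Wnt signalling is known to keep on in brain endothelium were all measured, with a median log2 ratio of 0.23 and none past the rule. Cldn5 stood at 5507 CPM in the mutant and 4866 CPM in the control, and Slc2a1, the glucose transporter of the barrier, at 1407 CPM (mutant) and 1119.6 CPM (control). Abcb1a, an efflux pump, stood at 1401 CPM in mutant and 1207 CPM in control cells, while the lipid transporter gene Mfsd2a was at 197 CPM in the mutant and 223 CPM in the control. Lef1 had 1349 CPM (mutant) and 999 CPM (control), a ratio of 1.35 (1.20 to 1.52). The feedback genes Nkd1, at 207 CPM in the mutant and 163 CPM in the control, and Notum, an enzyme that inactivates Wnt proteins, at 77.4 CPM in the mutant and 60.2 CPM in the control, had intervals that include 1. Fzd6, at 401 CPM (mutant) and 319 CPM (control), had the highest level of the listed Frizzled genes there. Among cells without a Plvap UMI, Cldn5 stood at 5871 CPM in the mutant and 6051 CPM in the control, the other direction from the whole class. Slc2a1 stood there at 1494 CPM (mutant) and 1373 CPM (control), and Mfsd2a at 210 CPM (mutant) and 279 CPM (control). Lef1 was at 1436 CPM (mutant) and 1260 CPM (control) in these cells. The medians above also carry the smaller number of cells with Plvap in the mutant, whose part in them was not tested.

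In fibroblast-like cells 49 listed genes were measured, of which 2 were higher and 7 lower, beside 3.16% higher and 4.13% lower over all measured genes. Wnt4 stood at 11.3 CPM in the mutant and 111 CPM in the control, Wnt5a at 49.9 CPM (mutant) and 104 CPM (control) and Wnt6 at 7.17 CPM (mutant) and 27.0 CPM (control). The receptor gene Ror2, at 14.3 CPM in the mutant and 42.8 CPM in the control, and Lef1, at 8.78 CPM (mutant) and 18.4 CPM (control), were lower too, as were Tle1 and Tnfrsf19. Wnt16, at 63.6 CPM in the mutant and 33.6 CPM in the control, and Dvl2 were higher. The Coch cluster held 43 of 49 mutant and 166 of 168 control Wnt4 UMIs and the Slc47a1 cluster 275 of 275 mutant and 49 of 51 control Wnt16 UMIs, while the share of the clusters differed between libraries as given above. Wnt4 was also lower within the Coch cluster, at 104 CPM (75.5 to 141) in the mutant and 486 CPM (415 to 566) in the control, where 1 control cell held 65 of the 166 UMIs. Without that cell the control stood at 310.4 CPM, and the ratio was 0.336 (0.230 to 0.485). In astrocyte-like cells 49 were measured, with 0 higher and 1 lower (2.65% higher and 2.01% lower over all), Lef1 at 6.54 CPM (11 UMIs) in the mutant and 18.0 CPM (110 UMIs) in the control. In choroid plexus epithelium-like cells 41 were measured, with 3 higher and 0 lower (2.01% higher and 1.42% lower over all). They were Rspo3, at 8.93 CPM in the mutant and 3.04 CPM in the control, Dvl3, and Sfrp5, a secreted inhibitor, at 20.9 CPM in the mutant and 13.3 CPM in the control. The inhibitor Sostdc1 was the most abundant listed gene there, with 972 CPM in the mutant and 922 CPM in the control. In microglia-like cells 49 were measured, with 2 higher (Rspo3 and Abcb1a) and 5 lower (Fzd8, Mfsd2a, Fzd2, Dkk3 and Tnfrsf19), beside 2.12% higher and 4.49% lower over all. In BAM-like cells, where 3.92% of all genes were higher and 3.10% lower, 20 were measured, with Ccnd1 higher (251 CPM in the mutant, 159 CPM in the control) and Ppard lower (29.5 CPM in the mutant, 53.9 CPM in the control).

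Genes whose levels followed each of the 10 most closely were ranked by Pearson's r of log2(CPM + 1) over 12 points, the 6 classes in both libraries. The points of a class share its cells' identity, so r describes the pattern over classes only. The closest were Egfl6 for Ndp (r = 0.9996), Grid1 for Wnt7a (r = 0.995) and Gcnt4 for Wnt7b (r = 0.996). Lgr6, an R-spondin receptor gene, was among the leading 3 for both Ndp and Wnt7a. Abcb1a was closest to Adgra2 (r = 0.994), Slc35b1 to Fzd4 (r = 0.975), Efr3b to Tspan12 (r = 0.991) and Amotl1 to Reck (r = 0.987), followed for Reck by Zfp248 and the Notch target Hes1. Osmr, a cytokine receptor gene, was closest to Apcdd1 (r = 0.991), Arl2bp to Axin2 (r = 0.979) and Kmt5b to Lrp5 (r = 0.998).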

How the data were processed

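The authors deposited 1 matrix per library of UMI counts, not normalized and written by Cell Ranger 7.1.0, per the file headers; libraries were 10x Chromium 3′ v3.1 per the labels' protocols. The submitters' processing notes name GRCm38.p6 and mm10; for intron counting, cell calling and free-RNA correction the sources used here give no setting. Barcodes needed 500 genes or more and a mitochondrial share up to 10% (1680 mutant and 2339 control barcodes lay above that limit), and Scrublet in scanpy 1.11.5, run before the mitochondrial limit (an order set after the files were seen, since its automatic threshold failed after the limit), marked 197 mutant and 174 control barcodes as doublets, which were removed. The median depth was 8236 UMIs per mutant and 7998 per control barcode.

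A cell entered a class when at least 4 of 10 markers (3 of 5 for short lists) were detected and their mean log level reached 50% of the median among barcodes with at least 6 (short lists 4) of them; cells that passed for several classes (546 mutant, 404 control) or none (295 mutant, 182 control) were left out. Leiden clusters (15 neighbours, 30 components, 2000 variable genes, resolution 1) were computed without the 10 genes. UMIs were summed per class and library as CPM, with exact Poisson intervals for CPM, Clopper-Pearson intervals for shares and the conditional interval for a ratio of Poisson counts (scipy 1.17.1); a count of 0 allows up to 3 counts. Droplet UMIs are not replicates, so no p-value was made. Gene locations come from GENCODE M21. The genes, lists and gate thresholds were chosen with earlier results of these data known. Named genes are the 10, the list genes farthest from a ratio of 1 or at the highest level, the genes most alike over classes, and cluster markers. Scripts were tested on simulated data. The number of pairs of gene and class that met the size rule was the main count between genotypes. Alternatives covered the mitochondrial and gene limits, doublets, clusters for the gate, trimmed-mean (TMM) scaling, equal weight per cell and the UMI minimum.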

Additional observations from a re-analysis of the deposited data

Results flagged for a closer look

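Ligand RNA was also present in astrocyte-like barcodes that the mitochondrial limit removed, which only the alternative with no mitochondrial limit used. There were 136 such barcodes in the mutant and 999 in the control. Ndp had 27 UMIs (33.7 CPM) in the mutant and 308 UMIs (36.5 CPM) in the control. Wnt7a had 44 UMIs (54.9 CPM) in the mutant and 522 UMIs (61.9 CPM) in the control, and Wnt7b had 50 UMIs (62.3 CPM) in the mutant and 541 UMIs (64.2 CPM) in the control. These counts lie above the 3 counts that a count of 0 allows. For Wnt7a and Wnt7b, and for Ndp in the mutant, the intervals overlapped those of the kept astrocyte-like cells. Ndp in the control was lower than in the kept cells, at 36.5 CPM (32.6 to 40.9) against 47.2 CPM (41.9 to 52.9).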

How the results depend on the processing

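The number of gene and class pairs that met the size rule was 4. It stayed 4 with no mitochondrial limit. It was 3 with at least 1000 genes per barcode, with doublets kept, with clusters for the gate or with equal weight per cell. It was 5 with TMM scaling, where Fzd4 in astrocyte-like cells joined. With a minimum of 20 UMIs it was 7, where Ndp, Wnt7a and Wnt7b in microglia-like cells joined. The 6 genes highest in endothelial-like cells were 6 in each of the 5 alternatives run for that count. The median log2 ratio of the pathway list in endothelial-like cells was 0.20, lay between 0.17 and 0.23 under 5 alternatives, and was 0.024 with equal weight per cell, where 2 genes were higher and 2 lower; the cause was not tested. Of 50 recomputed ratios, 38 stayed on their side of the rule, 11 no longer met it, 1 newly met it (Apcdd1 in an endothelial-like cluster) and 0 turned round. Among ratios by cluster outside these 50, Fzd4 met the rule in a microglia-like and a choroid plexus epithelium-like cluster, lower in the mutant in both. Apcdd1 in microglia-like cells was 0.524 with at least 1000 genes, 0.566 with doublets kept, 0.809 with clusters and 0.499 without the shallow cluster; the UMIs fell under the minimum of 50 in each of these but the one with doublets kept. Tspan12 in endothelial-like cells was 0.742 with equal weight per cell. The subsets by Plvap and by cluster, and those without the cell highest in a gene, were chosen after seeing the data. No paired analysis was possible because each genotype had 1 library. Endothelial-like cells held 516783 mutant and 448396 control UMIs, which limits what ratios there can show.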

Other observations

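Fzd8, another Frizzled receptor gene, differed most among the listed genes in microglia-like cells. It had 9 UMIs in 9 of 3638 mutant cells and 110 UMIs in 101 of 3404 control cells, a ratio of 0.0807 (0.0359 to 0.159). The level was low, at 0.277 CPM in the mutant and 3.43 CPM in the control. It was lower in the mutant in 8 of 8 microglia-like clusters of at least 40 cells. These clusters divide the same 2 libraries and are not repeats of the difference. Astrocyte-like cells held 14 UMIs (8.32 CPM) in the mutant and 71 UMIs (11.6 CPM) in the control, and the part of free RNA was not tested. Mfsd2a was also lower in microglia-like cells, with 16 UMIs in the mutant and 82 in the control, and astrocyte-like cells held it at 120 CPM in the mutant and 154 CPM in the control.

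Wnt4 stood in ependymal-like cells at 183 CPM in the mutant and 173 CPM in the control, beside the Coch cluster of fibroblast-like cells. Ependymal-like cells held Wnt5a at 52.1 CPM in the mutant and 51.2 CPM in the control. Pericyte-like cells, counted without the mitochondrial limit at 28 in the mutant and 15 in the control, held Apcdd1 at 124 CPM (40.3 to 289, 5 UMIs) in the mutant and 130 CPM (35.4 to 332, 4 UMIs) in the control. Adgra2 stood there at 99.2 CPM (27.0 to 254, 4 UMIs) in the mutant and 162 CPM (52.7 to 379, 5 UMIs) in the control, beside 127 CPM in mutant and 113 CPM in control endothelial-like cells counted the same way.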
